A study of Mus musculus with 3 samples.

Results

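The loci of 9 genes that mark microglia, the resident macrophages of the brain, or that encode transcription factors of the myeloid lineage, were examined in single-nucleus open-chromatin data from mouse brain. The genes were the transcription factor genes Spi1, Irf8, Runx1 and Sall1, the receptor genes Csf1r, Cx3cr1, P2ry12 and Trem2, and Tmem119, which encodes a microglial surface protein. They were 9 of 21883 protein-coding genes with a position in the mm10 gene table. A locus was the gene body with 10 kb on either side, and every called peak touching it was a member. The merged peak lists of the 3 libraries gave 116 regions at these loci, of 147229 in all. Of these, 22 lay within 1000 bp of an end of the gene (gene ends) and 94 did not (other peaks).

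The series holds 3 libraries of single-cell ATAC-seq, in which Tn5 transposase cuts open DNA inside nuclei and each cut end is counted under its nucleus barcode. The groups were Control, overexpression of PDGFB-WT and overexpression of PDGFB-NLS, with 1 library each and nothing in the labels on the age or strain of the mice. PDGFB is a ligand of the PDGF receptors, and the meaning of NLS is not spelled out in the labels. The tumors were made by in utero electroporation of piggyBac transposon plasmids, all 3 libraries carry the tissue label glioma, and the labels do not say what plasmid the Control received, whether it formed a tumor, or how many animals went into a library. There is no replicate, so no test between conditions was possible. All intervals below are exact 95% intervals (Clopper-Pearson on fragments) and cover counting error only.

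Microglia depend on signalling through CSF1R, the receptor for CSF1 and IL-34. Their chromatin is shaped by PU.1, the ETS factor encoded by Spi1, which works together with IRF8 and RUNX1, while SALL1 helps to keep the homeostatic microglial state. CX3CR1 and P2RY12 sense fractalkine and extracellular nucleotides, TREM2 is a lipid-sensing receptor that signals through the adaptor TYROBP, and TMEM119 is used as a marker that sets microglia apart from other macrophages. In gliomas, microglia and macrophages that enter from the blood make up a large part of the non-tumor cells, and several of these genes are shared by both cell types.

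Promoter sequences are given here because the regions at the annotated starts differed among the members in how far they set microglia-like nuclei apart. RefSeq promoter windows on GRCm38.p6 (mm10) were matched by symbol for 6 of the 9 members, with 10 windows; Spi1, Csf1r and Tmem119 were not among them. Each sequence below is the 250 bases before the annotated start, 5′ to 3′ on the gene's strand, and capitals mark CG dinucleotides. The starts of Cx3cr1 (chr9:120068297-120068546, minus strand), Trem2 (chr17:48346151-48346400, plus strand), P2ry12 (chr3:59262986-59263235, minus strand) and the upstream start of Runx1 (chr16:92826075-92826324, minus strand) held 4, 4, 3 and 2 CG dinucleotides.
Cx3cr1: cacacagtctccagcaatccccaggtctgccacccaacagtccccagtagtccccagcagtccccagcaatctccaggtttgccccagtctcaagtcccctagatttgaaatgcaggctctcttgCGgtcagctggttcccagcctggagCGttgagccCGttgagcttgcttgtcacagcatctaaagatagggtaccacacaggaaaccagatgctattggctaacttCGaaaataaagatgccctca
Trem2: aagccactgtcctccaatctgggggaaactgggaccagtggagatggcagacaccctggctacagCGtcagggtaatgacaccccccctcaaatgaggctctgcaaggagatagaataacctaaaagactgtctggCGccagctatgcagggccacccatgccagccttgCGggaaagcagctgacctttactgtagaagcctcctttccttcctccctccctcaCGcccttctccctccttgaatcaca
P2ry12: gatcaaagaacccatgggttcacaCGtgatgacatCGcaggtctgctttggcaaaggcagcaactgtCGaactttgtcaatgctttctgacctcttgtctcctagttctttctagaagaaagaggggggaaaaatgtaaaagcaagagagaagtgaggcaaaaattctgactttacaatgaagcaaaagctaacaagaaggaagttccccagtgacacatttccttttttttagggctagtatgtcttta
Runx1 upstream start: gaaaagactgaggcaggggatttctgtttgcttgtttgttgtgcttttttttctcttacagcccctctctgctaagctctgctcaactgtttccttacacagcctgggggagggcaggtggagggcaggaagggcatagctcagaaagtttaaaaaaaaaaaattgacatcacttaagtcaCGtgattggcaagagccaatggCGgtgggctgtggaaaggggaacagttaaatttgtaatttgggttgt
The internal start of Runx1 (chr16:92697330-92697579, minus strand), the start of Irf8 (chr8:120736108-120736357, plus strand) and a start of Sall1 (chr8:89042863-89043112, minus strand) held 27, 29 and 30 CG dinucleotides, against a median of 6 (quartiles 2 and 16) over 32851 promoters of the table.
Runx1 internal start: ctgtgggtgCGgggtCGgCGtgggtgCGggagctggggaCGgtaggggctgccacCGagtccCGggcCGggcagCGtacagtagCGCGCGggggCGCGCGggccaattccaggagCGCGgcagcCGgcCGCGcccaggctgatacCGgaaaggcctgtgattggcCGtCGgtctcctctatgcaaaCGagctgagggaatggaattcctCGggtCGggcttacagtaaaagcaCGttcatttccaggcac
Irf8: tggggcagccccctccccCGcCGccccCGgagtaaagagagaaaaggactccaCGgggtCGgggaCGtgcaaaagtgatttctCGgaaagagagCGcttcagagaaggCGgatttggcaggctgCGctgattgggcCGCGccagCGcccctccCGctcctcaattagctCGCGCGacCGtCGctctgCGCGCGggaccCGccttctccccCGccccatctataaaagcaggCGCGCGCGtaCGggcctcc
Sall1: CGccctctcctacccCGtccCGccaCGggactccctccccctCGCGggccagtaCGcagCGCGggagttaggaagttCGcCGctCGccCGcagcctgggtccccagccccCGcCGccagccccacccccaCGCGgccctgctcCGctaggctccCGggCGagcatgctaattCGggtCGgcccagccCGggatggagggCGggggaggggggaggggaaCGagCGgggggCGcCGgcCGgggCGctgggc

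Short motifs were searched on both strands of the 10 windows. The PU.1 or ETS letters AGGAAGT, which contain the shorter core GGAAGT, occurred in 2 of them, at P2ry12 and Sall1, and in 7.69% of all promoters of the table. The RUNX letters TGTGGTT (4.4% of all promoters), the IRF motif, GAAA repeated after 2 bases (2.98%), and the ETS-IRF composite, GGAA and GAAA parted by 2 bases (2.3%), occurred in none of the 10. The AP-1 letters TGANTCA were found at Trem2 (6.75% of all), TTGCNNAA of C/EBP factors at P2ry12 (9.56%), the SP or KLF letters GGGCGG in 3 windows of Irf8 and Sall1 (32.7%) and TATAAA at Irf8 (12.4%). These matches describe letters in the windows and do not show binding.

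The libraries differed in depth. After barcodes under 200 counts were removed, Control held 2226 barcodes and 31588784 counts (median 13054 per barcode), PDGFB-WT 7441 barcodes and 7008951 counts (median 821), and PDGFB-NLS 10996 barcodes and 31177621 counts (median 2768). The peak lists held 107627, 57616 and 127094 peaks, and a region missing from a list has an unknown count there. Between 22 and 118 barcode sequences were shared by a pair of libraries. Levels are given as CPM, counts per 1000000 counts in the 47450 regions called in all 3 libraries.

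Microglia-like nuclei were identified in each library alone by clustering without any peak within 25 kb of a member, and were named from 21 microglia or macrophage markers that include no member. Control gave 471 such barcodes (21.2%), PDGFB-WT 2225 (29.9%) and PDGFB-NLS 2802 (25.5%). Of those markers, 21 of 21 were higher there than in the other barcodes of Control, and 20 of 21 in PDGFB-NLS. In PDGFB-WT, 20 had a peak, 18 had enough counts to be compared, and all 18 were higher. Summed over the marker regions called in all 3 libraries, the markers were 3.17, 2.75 and 3.09 times higher in microglia-like than in other barcodes of Control, PDGFB-WT and PDGFB-NLS. Summed markers of OPC were lower there, at 0.41, 0.30 and 0.40 times, as were those of oligodendrocytes, astrocytes, neurons, mural cells or fibroblasts and neural progenitors, at 0.41 to 0.81 times. Endothelial markers stood at 1.11, 1.75 and 1.32 times, and lymphocyte markers at 1.27, 1.33 and 1.17 times. The name covers microglia and macrophages alike, since the lists do not separate them. The other barcodes are all those outside the named cluster, unnamed clusters included. In Control they hold an unnamed cluster of 64 barcodes in which 18 of 21 of these markers were higher than in the rest. Csf1r stood at 179 CPM in that cluster. The folds below therefore depend on which clusters were named.

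The loci were more accessible in the microglia-like nuclei than in the rest, with Sall1 and, in PDGFB-WT, Trem2 close to level. Over the regions called in all 3 libraries, the 9 loci together stood at 1362 CPM in microglia-like and 223 CPM in other nuclei of Control, 6.12-fold higher (5.76 to 6.37). The same regions were 4.02-fold higher in PDGFB-WT (3.63 to 4.42) and 5.14-fold higher in PDGFB-NLS (4.79 to 5.30). The contrast was smaller at gene ends (3.37, 2.49 and 2.72-fold in Control, PDGFB-WT and PDGFB-NLS) than in the other peaks (9.74, 5.80 and 8.87-fold). Members differed widely, from Csf1r, which was 24.8-fold higher in Control, to Sall1, which was 1.49-fold higher. Over these shared regions, the fold was lowest in PDGFB-WT of the 3 libraries for 8 of the 9 members, Sall1 being the exception. The share of all genes with their lowest fold in PDGFB-WT was not counted. The summed markers, which include no member, were also lowest there, at 2.75 against 3.17 in Control and 3.09 in PDGFB-NLS. Intervals overlapped for some members, such as Irf8 (1.98 to 3.48 in PDGFB-WT, 2.56 to 3.37 in PDGFB-NLS), and did not for P2ry12. Over all peaks that each library called, the fold was lowest in PDGFB-WT for 7. The Runx1 fold was then lowest in PDGFB-NLS, at 4.29 against 7.58 in Control and 6.22 in PDGFB-WT. Shared regions alone gave 9.05 for Runx1 in PDGFB-NLS. The fold of Trem2 was also higher with all called peaks, at 11.3 in Control and 10.0 in PDGFB-NLS, and stayed at 1.66 in PDGFB-WT.

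**Figure D1:**
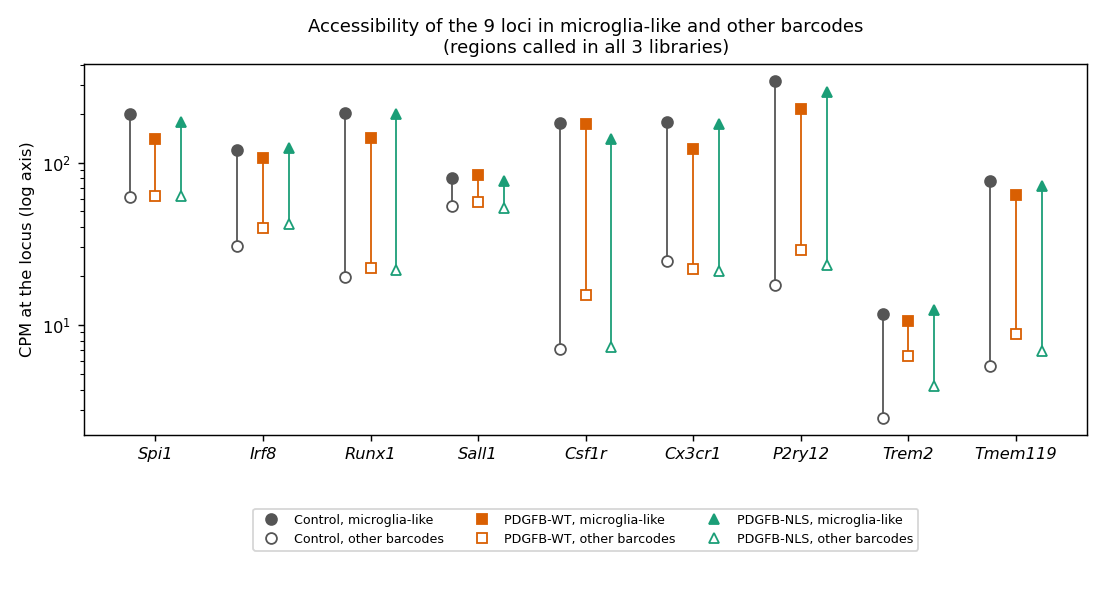
Levels of the 9 loci (CPM over regions called in all 3 libraries, log axis) in microglia-like (filled) and other (open) barcodes of each library, joined by a line. The filled points lie above the open ones at each locus and library, with the widest gap at Csf1r (24.8-fold in Control) and narrow gaps at Sall1 (1.49-fold in Control) and at Trem2 in PDGFB-WT (1.66-fold).

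Of the 116 regions, 73 were at least 5-fold higher in microglia-like nuclei in every library that called them (62.9%), 24 were under 2-fold in every such library (20.7%) and 19 fell in neither class. Among all 147229 regions the shares were 11.9% and 76.0%. Of the 35 member regions called in all 3 libraries, 24 were at least 5-fold and 5 under 2-fold in all 3, against 8.35% and 78.0% of the 47450. Per library, 67 of 86 member regions in Control, 25 of 39 in PDGFB-WT and 66 of 101 in PDGFB-NLS reached 5-fold, against 17.3%, 8.09% and 14.7% of all regions called there. The clusters were built on all other peaks, so these folds describe how the loci fall on the clusters and carry no test. A fold of whole clusters also cannot tell more nuclei with an open site from more open sites per nucleus.

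**Figure D2:**
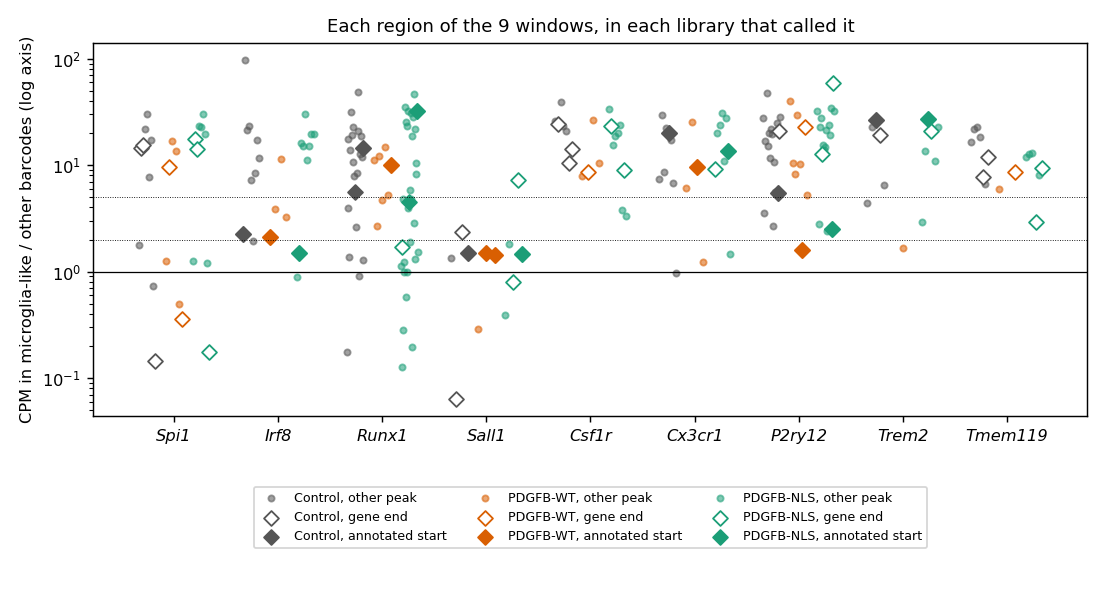
Fold of microglia-like over other barcodes for each region at each locus (log axis), by library, with gene ends as diamonds, filled where they hold an annotated start, and dotted lines at 2 and 5. A Runx1 region at a fold of 0 and a P2ry12 region with no count in other barcodes, both in PDGFB-NLS, could not be drawn on the log axis. Csf1r, Cx3cr1 and P2ry12 lie mostly above the upper line, Runx1 is spread over both lines, and Sall1 stays mostly below the lower one.

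Spi1 (chr2:91082374-91115759) encodes PU.1, the ETS factor that macrophages and B cells require. Over its 6 regions called in all 3 libraries the level in microglia-like nuclei was 199 CPM in Control, 140 CPM in PDGFB-WT and 177 CPM in PDGFB-NLS, against 61.3, 62.2 and 62.1 CPM in the other nuclei. The other nuclei were thus level across libraries, and the fold was 3.25, 2.25 and 2.85. This modest fold was an average of unlike regions. The region 0.69 kb inside the low end (chr2:91082594-91083536) was 15.5, 9.53 and 14.1-fold higher in microglia-like nuclei of Control, PDGFB-WT and PDGFB-NLS, the one 2.20 kb inside 21.8, 16.8 and 23.1-fold, and the one 14.4 kb inside 17.0, 13.6 and 30.5-fold. The region at the high end (chr2:91114814-91115718) went the other way, at 0.14, 0.36 and 0.18 times the level of other nuclei, and a region 19.2 kb inside stood at 0.73, 0.49 and 1.21 times. Of the 10 Spi1 regions, 7 were at least 5-fold and 3 under 2-fold in every library that called them. The genes Slc39a13 and Mybpc3 lie in the window, so a region near them cannot be given to Spi1 alone.

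Irf8 (chr8:120736358-120756694) encodes an interferon regulatory factor that pairs with PU.1. Its start region (chr8:120735787-120736850), which holds the CG-rich window printed above, was open in both populations: 60.9 against 27.0 CPM in Control, 65.8 against 31.4 CPM in PDGFB-WT and 57.8 against 38.3 CPM in PDGFB-NLS, or 2.26, 2.09 and 1.51-fold. The 3 other peaks shared by all libraries were far more selective, at 17.1-fold in Control, 4.87-fold in PDGFB-WT and 17.8-fold in PDGFB-NLS. Among them, a region 9.11 kb inside the gene was 23.3, 11.3 and 30.4-fold higher in the microglia-like nuclei. Of the 10 Irf8 regions, 5 were at least 5-fold and 2 under 2-fold throughout.

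Runx1 (chr16:92601466-92826074) encodes a RUNX factor of blood and microglial development and is the longest of the loci, with 36 regions. It was also the most mixed: 15 regions were at least 5-fold and 13 under 2-fold in every library that called them. Its 2 annotated starts differed. The region of the upstream start (chr16:92825656-92826571) has 2 CG dinucleotides in the window. It was 14.5-fold higher in microglia-like nuclei of Control (9.68 to 21.5), 10.0-fold in PDGFB-WT (4.56 to 22.6) and 32.2-fold in PDGFB-NLS (18.8 to 57.5). The internal start, with 27 CG dinucleotides, had a called peak in Control and PDGFB-NLS, at 22.7 and 22.4 CPM, and was 5.59 and 4.55-fold higher. A neighbouring region (chr16:92698317-92699235) was 2.64, 2.66 and 1.90-fold higher. Among shared regions, the highest fold in Control lay inside the gene, 114 kb from the low end (chr16:92715274-92716279), at 48.9, with 12.1 in PDGFB-WT and 18.6 in PDGFB-NLS. In both other libraries the highest fold lay 186 kb from the low end (chr16:92786652-92787573), at 14.9 in PDGFB-WT and 46.4 in PDGFB-NLS, with 12.6 in Control. No interval was computed for the folds of these single regions, so their order is not separated from counting error. A region 74.4 kb from the low end (chr16:92675382-92676362) held more signal, 22.0, 12.3 and 16.8 CPM over all barcodes, and was 31.4, 11.2 and 23.1-fold higher. The PDGFB-NLS list, the longest one, alone called 14 of the 36 regions, and 26 of the 116 regions of all members. The share of all merged regions that it alone called was not counted, so this is not read as a trait of Runx1.

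**Figure D3:**
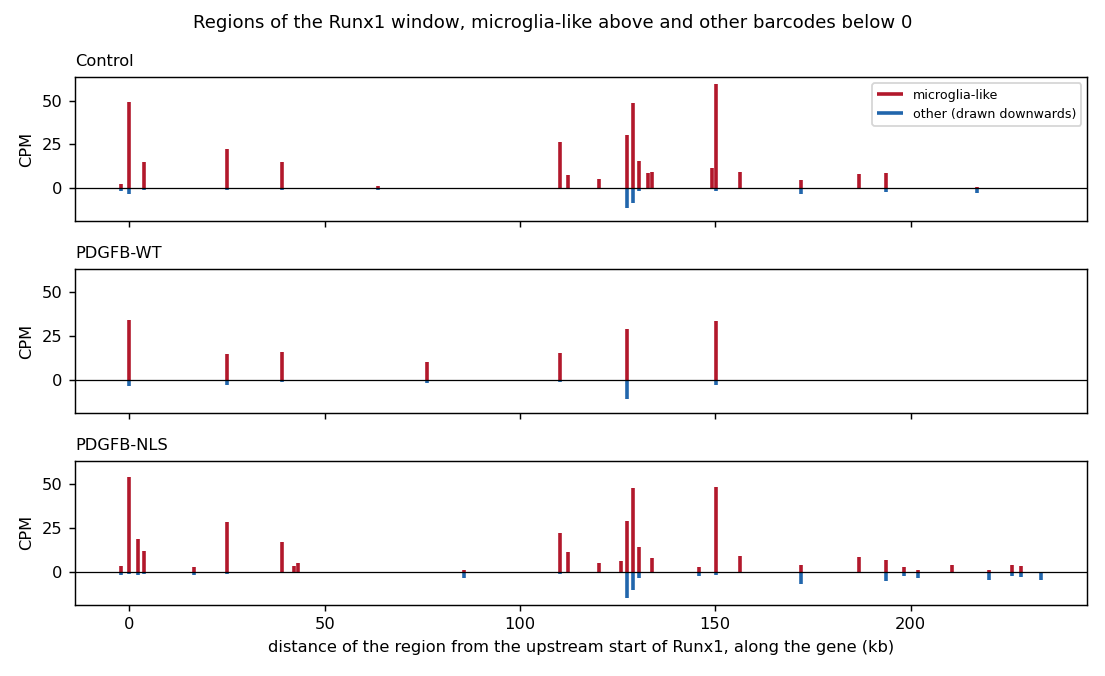
Levels (CPM) of the regions of the Runx1 locus by distance along the gene from its upstream start (kb), in 1 panel per library, with microglia-like barcodes drawn upwards and other barcodes downwards. In Control the region at the upstream start reaches 49.2 CPM in microglia-like and 3.39 CPM in other barcodes, while the regions at the internal start also carry signal in the other barcodes.

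Sall1 (chr8:89027242-89044162), which encodes a zinc-finger factor of microglia and of neural and kidney progenitors, stood apart. Its start region (chr8:89042527-89043381) was at 80.2 against 53.8 CPM in Control, 84.1 against 56.8 CPM in PDGFB-WT and 76.9 against 52.5 CPM in PDGFB-NLS, a fold of 1.49, 1.48 and 1.46. None of its 6 regions reached 5-fold in every library that called it, and 5 were under 2-fold. In Control an astrocyte-like cluster was higher at the locus (123 CPM, interval 113 to 142) than the microglia-like cluster (97.3 CPM, 89.8 to 108). In PDGFB-WT and PDGFB-NLS the microglia-like cluster ranked first, at 118 and 102 CPM, but an unnamed PDGFB-WT cluster at 116 CPM and an astrocyte-like PDGFB-NLS cluster at 94.7 CPM were within its interval or overlapped it.

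Csf1r (chr18:61105572-61131139), the receptor of CSF1 and IL-34, showed the clearest contrast. Over its 3 shared regions it stood at 175 CPM in microglia-like nuclei of Control, 172 CPM in PDGFB-WT and 140 CPM in PDGFB-NLS, against 7.07, 15.4 and 7.35 CPM in the other nuclei. Control had a fold of 24.8 (19.4 to 33.2), PDGFB-WT 11.2 (8.13 to 17.0) and PDGFB-NLS 19.1 (13.4 to 22.2), so the PDGFB-WT interval lay below that of Control. The higher level of the other nuclei in PDGFB-WT went with that lower fold. Most of the signal came from 1 region 3.10 kb inside the low end (chr18:61108213-61109136), at 41.8, 44.8 and 31.0 CPM over all barcodes. Csf1r is known for an intronic enhancer called FIRE, and whether this region matches it was not tested. No Csf1r region was under 2-fold, and 9 of 11 were at least 5-fold in every library that called them. The high-end peaks also lie at an end of Hmgxb3.

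Cx3cr1 (chr9:120048683-120068296), the fractalkine receptor gene, had 10 of 11 regions at least 5-fold. Its 4 shared regions stood at 177, 121 and 173 CPM in microglia-like nuclei of Control, PDGFB-WT and PDGFB-NLS, and at 24.7, 22.0 and 21.5 CPM in the other nuclei. The level was thus lower in PDGFB-WT in the microglia-like nuclei and similar elsewhere, with a fold of 7.17, 5.49 and 8.03. The start region, CG-poor in the window printed above, was 20.2, 9.50 and 13.4-fold higher, and a region 10.3 kb from the low end (chr9:120058462-120059449) was 22.2, 25.2 and 27.7-fold higher. The exception was a region 5.10 kb above the gene (chr9:120072809-120073978), at 0.97, 1.24 and 1.47-fold.

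P2ry12 (chr3:59216271-59262985), the nucleotide receptor gene most used to mark homeostatic microglia, had 19 regions, of which 16 were at least 5-fold and none under 2-fold in every library that called them. Its 8 shared regions stood at 320, 215 and 272 CPM in microglia-like nuclei and at 17.7, 28.9 and 23.4 CPM in the others. The fold in Control was 18.1 (15.2 to 21.2), that of PDGFB-WT 7.44 (5.62 to 9.75) and that of PDGFB-NLS 11.6 (10.0 to 13.6), and these 3 intervals did not overlap. The start region (chr3:59262469-59263365) was the least selective of the 8, at 5.51, 1.61 and 2.53-fold, although its window holds 3 CG dinucleotides and the ETS letters. The next shared region inside the gene (chr3:59260501-59261505) was 24.8, 10.2 and 34.6-fold higher. P2ry12 lies within the larger gene Med12l, and 4 regions lie at the ends of the related receptor gene P2ry13, so the counts of these genes cannot be told apart.

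Trem2 (chr17:48346401-48352276) was the thinnest locus. The only region called in all 3 libraries lay below the gene (chr17:48336631-48337588) and was 4.39-fold higher in microglia-like nuclei of Control (2.66 to 7.53), 1.66-fold in PDGFB-WT (0.69 to 3.88) and 2.94-fold in PDGFB-NLS (1.86 to 4.61). The start region (chr17:48345926-48346674), with 4 CG dinucleotides in the window, was called in Control and PDGFB-NLS at 4.07 and 4.44 CPM and was 26.3 and 27.0-fold higher. No peak at either gene end was in the PDGFB-WT list, so no PDGFB-WT value exists there. The Trem2 window also touches Treml1.

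Tmem119 (chr5:113793729-113800396) had 6 of 7 regions at least 5-fold. Its 2 shared regions stood at 77.0, 63.3 and 71.9 CPM in microglia-like nuclei of Control, PDGFB-WT and PDGFB-NLS and at 5.58, 8.76 and 6.93 CPM in the others, or 13.8, 7.23 and 10.4-fold. The high-end region (chr5:113800010-113800944) was 11.9, 8.60 and 9.39-fold higher. Iscu lies in the same window.

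Counts of CG dinucleotides were set beside the starts after their values had been seen. The regions at 3 of the 4 CG-poor windows, those of Cx3cr1, Trem2 and the upstream start of Runx1, had folds of 14.5 to 26.3 in Control, above the 1.49 to 5.59 at the 3 CG-rich windows. P2ry12, also CG-poor, lay among the latter at 5.51 in Control and 2.53 in PDGFB-NLS. With 7 windows of 6 genes this is a description only.

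Levels can be compared between loci only per length of called peak. In microglia-like nuclei of Control, Csf1r was highest, at 45.2 CPM per kb of its called peaks, followed by Spi1 (35.1), Cx3cr1 (34.9), P2ry12 (30.5), Sall1 (28.3), Tmem119 (25.5), Irf8 (23.2), Runx1 (19.8) and Trem2 (15.2). Spi1 and Cx3cr1, P2ry12 and Sall1, Sall1 and Tmem119, and Tmem119 and Irf8 did not differ beyond counting error. In PDGFB-NLS the order began with Spi1 (33.5), Cx3cr1 (31.9) and Csf1r (28.6) and ended with Trem2 (15.4) and Runx1 (13.8), where Spi1 and Cx3cr1 overlapped, as did Cx3cr1 and Csf1r. In PDGFB-WT, whose shorter list keeps fewer peaks, Csf1r (56.0) and Sall1 (53.7) overlapped at the top, the 6 from Tmem119 (33.5) to Runx1 (25.3) overlapped with their neighbours, and Trem2 (11.5) was lowest. The order of a library depends on which peaks its list holds, and no spread over samples exists.

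Between libraries, each member was compared over the regions called in both, as the log2 ratio of CPM minus the median ratio of all genes for the same feature. A member was counted as past 1.5-fold beyond log2 0.58 in either direction, and genes with at least 100 counts over both libraries formed the background. The 3 comparisons share libraries and are not independent. In whole libraries, fewer microglia-like nuclei and less signal per nucleus cannot be told apart. Deep barcodes also weigh more there. Of the counts that set CPM, microglia-like barcodes of Control held 34.7%. The PDGFB-WT share was 30.7%, and that of PDGFB-NLS was 31.8%. Control was thus highest by counts, although lowest by barcodes. Its median depth was 23733 counts in microglia-like and 9786 in other barcodes. The part of these shares in the whole-library ratios was not tested.

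At the gene ends of whole libraries, no member passed 1.5-fold in any comparison, while 9.84% of 12839 genes were higher and 3.15% lower by that much in PDGFB-WT than in Control. The share in either direction was 8.71% for PDGFB-NLS set against Control and 8.03% with PDGFB-WT as the reference. The median over the members was -0.08 (8 members), -0.07 (9) and 0.06 (8), and with each barcode scaled to the same total the first of these changed sign, to 0.34. Over all alternatives the second ran from -0.16 to 0.08 and the third from -0.06 to 0.39, so neither kept its sign. Single values ran from -0.56 (Csf1r) to 0.25 (Irf8) in PDGFB-WT against Control and from -0.32 (Cx3cr1) to 0.21 (Irf8) in PDGFB-NLS against Control.

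In the other peaks of whole libraries, the median of PDGFB-WT against Control was -0.39 over 8 members, and -0.031 with each barcode scaled to the same total, where 2 members were past 1.5-fold higher. Cx3cr1 alone was past 1.5-fold, at 40.7 against 65.2 CPM (-0.69, interval -0.96 to -0.43), where 5.57% of 12721 genes were lower by that much; with equal barcode totals it was -0.15. The intervals of P2ry12 (-0.51), Runx1 (-0.47) and Spi1 (-0.39) also lay below 0, while Csf1r (0.10) and Trem2 (0.39) were above the median gene. In PDGFB-NLS against Control the median was -0.11, none of 9 members passed 1.5-fold (9.38% of genes did), and Csf1r was lowest at -0.37 (-0.50 to -0.22). In PDGFB-NLS against PDGFB-WT the median was 0.17, but -0.20 with each barcode scaled to the same total and 0.61 (5 members past 1.5-fold higher) with all peaks of each library's own list. There, Cx3cr1 stood at 0.57 (0.30 to 0.83) and Csf1r at -0.50 (-0.72 to -0.23). Sall1 alone was past 1.5-fold, at -1.87 (-2.67 to -1.02), where 11.5% of genes were lower by that much. Its value rested on 1 region below the gene (chr8:89017548-89018540) with 52 and 53 counts, or 2.12 and 7.85 CPM, and that region was lower in microglia-like than in other nuclei (0.39 and 0.29 times). With gene ends taken as 500 bp in place of 1000 bp, Sall1 came to -0.22, with all own peaks to -0.43, and with barcodes of at least 1000 counts to -1.16, with an interval that includes 0 (-2.20 to 0.11).

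Within the microglia-like nuclei, the loci lay below the median gene in PDGFB-WT against Control at 8 of 9 members, with a median of -0.30. The intervals of 4 members lay below 0, and the share of all genes with such an interval was not counted. With all peaks of each library's own list, which adds regions called in 1 library only, the median was -0.80. There, 7 members were past 1.5-fold lower, and the all-gene share under that setting was not counted. P2ry12 passed 1.5-fold, at 215 against 320 CPM (-0.60, -0.81 to -0.40), where 5.48% of 14078 genes were lower by that much; at a clustering resolution of 1.0 it was -0.58, short of 1.5-fold. Cx3cr1 at -0.57 (-0.85 to -0.30), Spi1 at -0.53 (-0.77 to -0.26) and Runx1 at -0.53 (-0.75 to -0.25) fell just short of it, with intervals below 0. Csf1r stood at -0.04 (-0.27 to 0.20) and Sall1 at 0.05 (-0.25 to 0.43), so not every locus was lower. Median depth of these barcodes was 854 counts in PDGFB-WT and 23733 in Control, and the PDGFB-WT summed 21 markers stood at 2928 against 3191 CPM. Their summed markers of OPC were 599 against 566 CPM and of lymphocytes 625 against 629 CPM. The part of depth and of other cells in these ratios was not tested.

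In PDGFB-NLS against Control, the microglia-like loci had a median of -0.05 and none passed 1.5-fold (4.29% of 15378 genes did). Csf1r stood at -0.28 (-0.42 to -0.15), at 199 against 240 CPM, P2ry12 at -0.23 (-0.34 to -0.13) and Spi1 at -0.20 (-0.34 to -0.10). The other 6 lay between -0.10 and 0.08 with intervals that include 0. In PDGFB-NLS against PDGFB-WT the median was 0.22 and none passed 1.5-fold over the locus (8.89% of 14186 genes did), while all own peaks gave 0.76 with 5 members higher. Cx3cr1 (0.52, 0.23 to 0.79), Runx1 (0.49, 0.21 to 0.72), P2ry12 (0.35, 0.15 to 0.57) and Spi1 (0.35, 0.07 to 0.58) were higher in PDGFB-NLS by more than counting error, and Csf1r was lower (-0.28, -0.54 to -0.06).

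Gene ends and other peaks of the same nuclei were also taken apart. At gene ends, 2 of 8 members were past 1.5-fold lower in PDGFB-WT than in Control, as were 8.56% of 11035 genes, and the median was -0.31. P2ry12 stood at 29.97 against 56.3 CPM (-0.92, -1.45 to -0.36) and Csf1r at 24.2 against 40.5 CPM (-0.75, -1.34 to -0.11), on 62 and 50 PDGFB-WT counts. With gene ends taken as 2 kb, Csf1r came to -0.29. In PDGFB-NLS against PDGFB-WT the gene-end median was 0.20, and 2 of 8 members were past 1.5-fold higher (8.12% of genes were), P2ry12 at 0.75 (0.18 to 1.29) and Runx1 at 0.65 (0.13 to 1.17). P2ry12 came to 0.49 with gene ends of 2 kb, and Runx1 to 0.54 with barcodes of at least 1000 counts, both short of 1.5-fold.

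In the other peaks of these nuclei, the median was -0.49 in PDGFB-WT against Control. Intervals lay below 0 for 5 of 8 members, with no all-gene share counted beside them. Cx3cr1 alone was past 1.5-fold (8.94% of genes were lower by that much). It stood at 90.4 against 144 CPM (-0.66, -0.98 to -0.35), and at -0.52 with a 25 kb flank. In PDGFB-NLS against PDGFB-WT the median was 0.31, and Cx3cr1 (0.67, 0.34 to 0.98) and Irf8 (0.66, 0.22 to 1.18) were past 1.5-fold higher, 2 of 8 members against 8.66% of genes. All own peaks raised that median to 0.97, with 6 members higher, and a 25 kb flank took Cx3cr1 to 0.50. In PDGFB-NLS against Control, none of 9 members passed 1.5-fold at gene ends (3.86% of genes did) or in other peaks (6.74%).

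**Figure D4:**
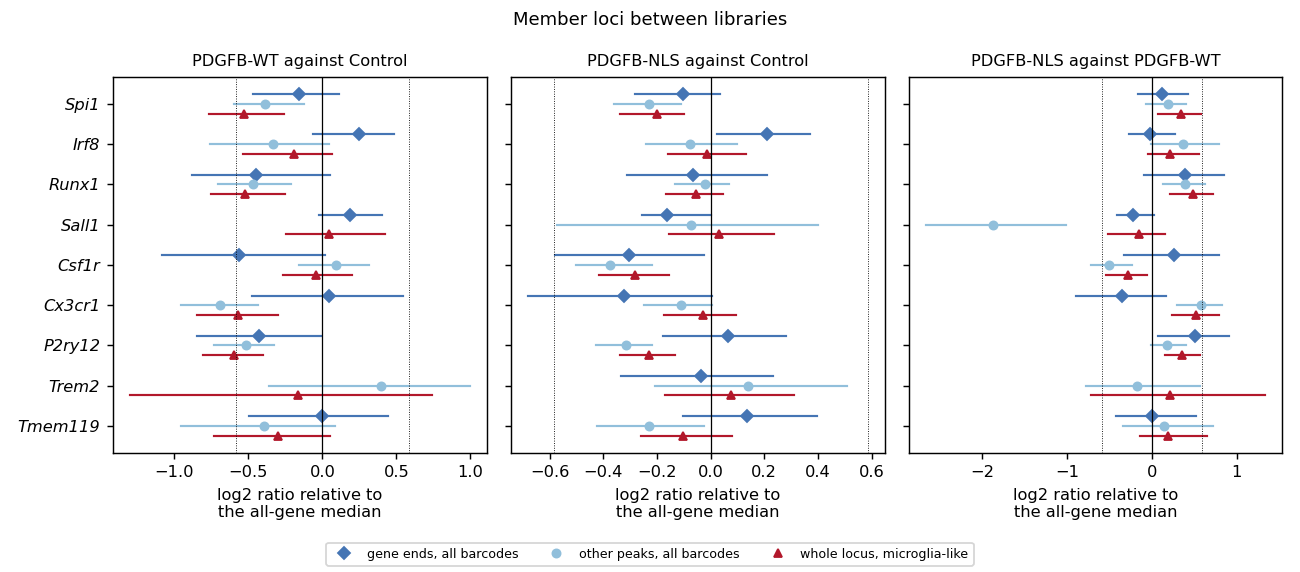
Log2 ratio of each member relative to the median gene, in 1 panel per pair of libraries, at gene ends, in other peaks and over the locus in microglia-like barcodes, with exact 95% intervals for counting error; dotted lines mark 1.5-fold and the panels have different ranges. In microglia-like barcodes, 8 of 9 members lie below 0 for PDGFB-WT against Control, with P2ry12 lowest at -0.60, and the PDGFB-NLS against Control values lie between -0.28 and 0.08.

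Barcodes with at least 1 fragment at any of the 9 loci were 67.7% of the Control barcodes, 20.3% in PDGFB-WT and 45.5% in PDGFB-NLS, in the order of the median depths. Each barcode was then thinned to 250 fragments within the regions called in all 3 libraries, and shallower barcodes were left out (89, 2050 and 249). The thinned shares were 9.64% (8.42 to 11.0), 12.2% (11.4 to 13.1) and 11.3% (10.7 to 11.9). Unthinned shares used all peaks of each list, so the region set changed along with depth. Among microglia-like barcodes the thinned shares were 25.3%, 24.2% and 26.9%, with intervals that overlap, and among the others 5.22%, 6.36% and 5.81%. The shares of the other barcodes are those reached outside the named microglia-like clusters. In Control these barcodes include the unnamed cluster of 64 in which 18 of 21 microglia or macrophage markers were higher. Unthinned, a microglia-like barcode of Control had fragments at a median of 7 of the 9 loci, one of PDGFB-WT at 0 and one of PDGFB-NLS at 2. Fragments at all 9 loci occurred in 62 barcodes, all of them microglia-like barcodes of Control (13.2% of these).

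Across the 21 clusters of the 3 libraries, the microglia-like cluster ranked first at every member locus, with the exceptions of Sall1 in Control and Trem2 in PDGFB-WT. The second place in Control mostly went to a cluster of 64 barcodes with no cell type name, whose 10 leading genes by fold were Rac2, Cmah, Cd3d, Fcrl1, Gm14548, Trem1, Selp, Itga4, Tmem236 and Cytip. The marker list highest in it was that of microglia or macrophages, with 18 of 21 markers higher than in the rest of the Control barcodes and a median log2 fold of 0.88, below the threshold for a name, and no marker among those 10 genes. It stood at 192 CPM for Spi1, 163 CPM for Cx3cr1 and 179 CPM for Csf1r. Another unnamed Control cluster, of 117 barcodes, had second place for Spi1 (199 CPM) and Trem2 (33.6 CPM). The marker list highest in that cluster was that of inhibitory neurons, at a median log2 fold of 1.04, again below the threshold for a name. Of those markers, 8 of 11 were higher and none was among its 10 leading genes. With clusters made with member peaks, a cluster of 120 barcodes with mostly the same leading genes had the endothelial list highest. The cluster of 117 barcodes also stood at 235 CPM for Runx1, 199 CPM for P2ry12, 111 CPM for Cx3cr1 and 88.8 CPM for Csf1r. Why the member loci were open there was not tested. Apart from Sall1, the members followed one another, with a Spearman correlation of 0.63 to 0.82 between a member and the mean of the other 8 over the 21 clusters, against 0.02 for Sall1. The clusters share libraries and depth, so these are descriptions. Genes like the members were also sought, leaving out all cell type markers, the microglia markers included, and genes with a region at a member locus. Among the 16256 genes compared, the 8 most like the mean of the members over the same clusters were Lpp (0.93), Hk2 (0.92), Cd276 (0.91), Gcnt1 (0.91), Olfr111 (0.90), Plcl2 (0.90), Lrrc34 (0.90) and Lrriq4 (0.90), the last 2 with overlapping windows. Whether the markers left out follow the members more closely was not tested.

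The ligands and partners of the receptors did not move as 1 group in the microglia-like nuclei. Of 8, 6 could be compared between PDGFB-WT and Control, 1 passed 1.5-fold upward and 1 downward (4.15% and 5.48% of all genes), and the median was -0.17. Apoe, a lipid carrier that binds TREM2, stood at 62.4 CPM in PDGFB-WT against 31.5 CPM in Control (0.96, 0.45 to 1.30). Csf1, a ligand of CSF1R, stood at 30.9 against 47.4 CPM (-0.64, -1.20 to -0.10). The TGF-beta receptor gene Tgfbr2 was at -0.44 (-0.68 to -0.23), its ligand gene Tgfb1 at -0.33 (-0.49 to -0.15), and Tyrobp, the TREM2 adaptor, at -0.01 (-0.21 to 0.20). In PDGFB-NLS against Control, 7 were compared, with a median of -0.06. Cx3cl1, which encodes fractalkine, was past 1.5-fold lower, at 6.3 against 9.8 CPM, with an interval that includes 0 (-0.67, -1.41 to 0.07). Of 15378 genes, 4.29% passed in either direction there. In PDGFB-NLS against PDGFB-WT the median was 0.11, with Csf1 at 0.83 (0.32 to 1.39) and Apoe at -0.66 (-1.02 to -0.18). Of 14186 genes, 5.32% were higher and 3.57% lower by 1.5-fold there. Over all barcodes and not the microglia-like ones, the gene ends of Il34, the other CSF1R ligand, stood at 9.3 CPM in PDGFB-WT against 3.3 CPM in Control (1.64, 0.93 to 2.28). There, 9.84% of 12839 genes were past 1.5-fold higher.

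Other lists of myeloid genes were compared in the same nuclei. The 18 homeostatic microglia genes had a median of -0.16 in PDGFB-WT against Control, with 0 higher and 1 lower past 1.5-fold (4.15% and 5.48% of all genes). P2ry13, the nucleotide receptor gene beside P2ry12, was lowest at 39.2 against 72.1 CPM (-0.90, -1.41 to -0.45), Itgb5 followed at -0.55, and Bin1 (0.09) and Olfml3 (0.13) were highest. Regions at the ends of P2ry13 are also regions of the P2ry12 locus, so the P2ry13 value shares counts with that member. Against Control, PDGFB-NLS had a median of -0.15 over the 18 with 0 past 1.5-fold, and against PDGFB-WT a median of 0.01 with 1 higher and 1 lower (5.32% and 3.57% of all genes). The other myeloid transcription factor genes had a median of -0.22 over 19 in PDGFB-WT against Control. Irf5 (144.6 against 262 CPM, -0.88, -1.05 to -0.57) and Batf3 (-0.81, -1.17 to -0.47) were lower past 1.5-fold, Bhlhe40 was higher (85.1 against 48.9 CPM, 0.78, 0.41 to 1.13), and Elf1 stood at 0.25. The same list had a median of -0.10 in PDGFB-NLS against Control, with 0 past 1.5-fold, and 0.12 in PDGFB-NLS against PDGFB-WT, with 2 of 19 higher beside 5.32% of all genes.

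Pan-myeloid genes had medians of -0.08 (19 genes) and -0.16 (20) against Control in PDGFB-WT and PDGFB-NLS, and of -0.05 (19) between these 2. Itgam was lowest in the first, at -0.70 with an interval that includes 0 (-1.49 to 0.03), and Lyz2, a lysozyme gene, in the second, at 8.8 against 18.4 CPM (-1.08, -1.68 to -0.50). Of 15 disease-associated microglia genes, 8, 13 and 8 were compared, with medians of 0.04, 0.07 and 0.31. Lgals3, which encodes galectin-3, was highest in PDGFB-NLS against Control, at 63.7 against 40.7 CPM (0.63, 0.36 to 0.91). Of 16 genes of border or monocyte-derived macrophages, 8, 12 and 8 were compared, with medians of -0.03, -0.30 and -0.30. In PDGFB-WT against Control, Itga4, an integrin gene of cells that enter from the blood, was highest at 26.1 against 10.6 CPM (1.28, 0.46 to 1.83), and Tgfbi was lowest at -0.75 (-1.25 to -0.17). Across the 3 comparisons, the pan-myeloid list held 0 genes past 1.5-fold higher and 1, 1 and 0 lower, the disease-associated list 1 higher in each and 0, 0 and 1 lower, and the macrophage list 1, 0 and 0 higher and 1, 0 and 1 lower. Of all genes, 4.15% were higher and 5.48% lower in the first comparison, 4.29% passed in either direction in the second, and 5.32% were higher and 3.57% lower in the third.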

How the data were processed

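The files are 10x peak-by-barcode matrices of 3 libraries, each with its own peak list. The deposited values are unnormalized counts for each peak in each barcode, written by cellranger-atac 2.1.0 per the file headers; Cell Ranger 8 and mm10 stand in the submitters' processing notes. Most values are even, the pattern of cut sites, so intervals used fragments, (v + 1) // 2 for a value v. How peaks and barcodes were called, and whether doublets were removed, is not given in the sources used here; no doublet caller was run, so doublets may remain.

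Barcodes with at least 200 counts were kept. Overlapping peaks were merged and CPM was set by counts in regions called in all 3 libraries. The gene table (RefSeq, GRCm38.p6) gives no strand, so both gene ends were used. All-gene median log2 ratios subtracted were -0.13, -0.01 and 0.11 at gene ends and 0.01, 0.00 and -0.02 in other peaks (PDGFB-WT and then PDGFB-NLS over Control, then PDGFB-NLS over PDGFB-WT). Clusters were made per library (peaks in at least 1% of barcodes, TF-IDF, components 2 to 30, 15 neighbours, Leiden at 0.6), and activity used the gene body with 2 kb on either side. A cluster took the name of 1 of 10 marker lists at a median log2 fold of at least 1.2, a threshold set after the clusters were seen. A cluster named in 1 library may be that library rather than a type.

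The members, the 6 companion lists, the marker lists and the motifs were chosen with earlier results of these data known. Named were all members, genes in their windows, 8 ligands and partners, genes among the 2 highest and 2 lowest of other lists, and the 8 genes most alike over clusters. The leading genes of an unnamed Control cluster were named after their values were seen. Computations used Python 3.11.15, numpy 2.4.6, scipy 1.17.1, pandas 2.3.3, scikit-learn 1.9.0, umap-learn 0.5.12, leidenalg 0.10.2 and igraph 0.11.9, and the ratio and interval steps were tested on simulated data. Alternatives covered the count scale and reading, barcode filters and weights, region sets, windows, flanks and clustering; those for gene ends and other peaks within microglia-like nuclei were chosen after seeing the data.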

Additional observations from a re-analysis of the deposited data

How the results depend on the processing

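No paired analysis was possible because each group has 1 library. Gene ends and other peaks within microglia-like nuclei were added after seeing the data. Of 225 alternative medians over the members, 218 stayed within the median counting interval of the members and 7 moved outside it. No median was past 1.5-fold in the main setting, so none could be counted as turning such a value to the other sign. With each barcode scaled to the same total, the gene-end median of PDGFB-WT against Control changed sign to 0.34, with 1 member past 1.5-fold higher, its other-peak median was -0.031, with 2 higher, and the other-peak median of PDGFB-NLS against PDGFB-WT turned to -0.20. The gene-end medians of PDGFB-NLS against Control (-0.16 to 0.08) and against PDGFB-WT (-0.06 to 0.39) also changed sign among the alternatives. With all own peaks of each list, which adds regions called in 1 library only, the other-peak median of PDGFB-NLS against PDGFB-WT was 0.61 (5 members higher). The same setting gave microglia-like medians of -0.80 for PDGFB-WT against Control (7 lower) and 0.76 for PDGFB-NLS against PDGFB-WT (5 higher), and in the other peaks of these nuclei 0.97 for the latter (6 higher). All-gene shares past 1.5-fold were not counted under these alternative settings. Thinning, which also kept only regions called in all 3 libraries, moved the shares of barcodes with a fragment at the loci to 9.64%, 12.2% and 11.3%. The 3 members past 1.5-fold in the planned comparisons depended on settings: Cx3cr1 other peaks came to -0.15 with equal barcode weights and -0.45 with a 25 kb flank, and Sall1 other peaks to -0.43 with all own peaks, -0.94 with a 25 kb flank, -1.16 with barcodes of at least 1000 counts and -0.22 with a 500 bp end window. P2ry12 in microglia-like nuclei ran from -0.57 to -0.77. Among the added values, P2ry12 gene ends (-0.67 to -1.05) in PDGFB-WT against Control and Irf8 other peaks (0.62 to 1.25) in PDGFB-NLS against PDGFB-WT stayed past 1.5-fold in every alternative run, while 1 or 2 alternatives took each of the other 5 short of it. Apart from what all own peaks change by construction, the cause of these shifts was not tested. The setting with no barcode minimum was not run for microglia-like nuclei. PDGFB-WT, with a median of 821 counts per barcode, limits every value that includes it.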
